A study of Mus musculus with 6 samples.

Results

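The tumour suppressor p53 and 9 genes that it is known to switch on were followed in mouse hearts that lack Cfp1 in their cardiomyocytes. The 10 genes are Trp53, Mdm2, Cdkn1a, Ccng1, Bax, Bbc3, Eda2r, Phlda3, Trp53inp1 and Zmat3. They were taken by gene symbol from the annotated expression table, which holds 26881 genes, and all 10 were found, once each. Their levels in the 3 libraries labelled Cfp1-cKO were compared with those in the 3 libraries labelled WT.

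p53 is a transcription factor that is held at a low level by the ubiquitin ligase Mdm2 and is stabilised when DNA is damaged or a cell is stressed. It then binds response elements near its target genes. Among these Cdkn1a halts the cell cycle, while others open mitochondria to apoptosis (Bax, Bbc3) or feed back on p53 itself (Mdm2, Zmat3). The activity of p53 is set mostly on the protein, and the RNA of the targets is therefore the usual readout of it in tissue.

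The Cfp1-cKO hearts carried Myh6-Cre with Cfp1 flox/flox and the controls were WT, all of mice on a C57BL/6 background aged 2 weeks. Myh6 drives Cre in cardiomyocytes, so the fibroblasts, vessels and blood cells of a heart keep the gene. No source used here says if 1 heart or a pool went into each sample, and p-values thus speak for the spread between these samples alone. Cxxc1, which encodes Cfp1, had 8.02, 9.94 and 8.74 FPKM (fragments per kilobase of gene, relative to the size of the library) in Cfp1-cKO hearts, against 9.66, 12.9 and 10.03 FPKM in WT hearts. The groups overlapped, since the second Cfp1-cKO library lay above the first WT library, and Cxxc1 was not called (log2 fold change -0.26, SE 0.16; limma adjusted p = 0.249), nor was it after the scaling described below, where the difference was larger (-0.66, SE 0.17; limma adjusted p = 0.0571). Whole-gene values cannot show a loss of the floxed part alone.

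The library totals implied by the steps of the FPKM values were 16672652 to 19481847 fragments in Cfp1-cKO hearts and 18007473 to 22700811 fragments in WT hearts. Recovered fragments summed over genes came to slightly more, 16743912 to 19598684 and 18139340 to 22843636 in that order. The totals are thus those of the FPKM scale and not of all fragments sequenced, and the cause of the excess was not tested. The test covered 11017 genes, those that averaged 1 FPKM or more, and 2325 were called higher in Cfp1-cKO hearts (21.1%) and 185 lower (1.68%). A gene was called at an adjusted p below 0.05 (limma on log2(FPKM + 1), Benjamini-Hochberg over all genes tested) with a log2 fold change beyond 0.5 in size. On the log2 scale the median over tested genes was 0.35. After median-of-ratios scaling, which divides each library by its typical ratio to the others and leaves a median of 0.00, 411 genes were called higher (3.73%) and 358 lower (3.25%). The share of called genes that were higher was thus 92.6% as deposited and 53.4% after scaling, and values on both scales are therefore given for the genes described. The 10 cardiomyocyte markers summed to 8950 to 12463 FPKM in Cfp1-cKO hearts, against 9635 to 18133 FPKM in WT hearts, and 4 of them were called lower. Of 5 atrial muscle markers 3 were called lower on both scales and 1 was called higher as deposited. The 5 summed to 347 to 642 FPKM in Cfp1-cKO hearts, against 855 to 1523 FPKM in WT hearts. Mitochondrial genes held 29.4 to 34.7% of fragments in Cfp1-cKO hearts, against 36.6 to 38.9% in WT hearts, and without mitochondrial and haemoglobin genes Phlda3 was the 1 called gene of the set. Markers of other tissues moved with the genotype. All 12 lung epithelium markers were called higher, with summed levels of 3232 to 4898 FPKM in Cfp1-cKO hearts, against 0.29 to 4.04 FPKM in WT hearts, where Cldn18, Lamp3 and Nkx2-1 were listed at 0. The 7 B and plasma cell markers summed to 61.8 to 220.1 FPKM in Cfp1-cKO hearts, against 0.55 to 2.12 FPKM in WT hearts, and the 8 macrophage markers to 57.8 to 93.1 FPKM in Cfp1-cKO hearts, against 37.5 to 50.3 FPKM in WT hearts. The 8 fibroblast markers summed to 450 to 727 FPKM in Cfp1-cKO hearts, against 271 to 370 FPKM in WT hearts. For the 7 endothelium markers the sums were 163 to 238 FPKM and 118 to 151 FPKM in that order. The 7 markers of proliferating cells summed to 38.9 FPKM in the second Cfp1-cKO library, against 4.88 and 3.39 FPKM in the other Cfp1-cKO libraries and 1.03 to 3.39 FPKM in WT hearts. Xist was at 22.5 and 34.5 FPKM in the first and second Cfp1-cKO libraries and at 12.4 FPKM in the second WT library, and at most 0.03 FPKM in the other libraries. The Y-linked gene Ddx3y was at 0.94 and 0.66 FPKM in those Cfp1-cKO libraries and at 0 FPKM in that WT library. In the other libraries it was at 18.0 to 22.2 FPKM. The part of these differences in the results below was not tested, and in RNA of whole tissue fewer cells of a type and less RNA per cell cannot be told apart.

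To show where p53 could act on these genes, promoter windows of RefSeq (GRCm38.p6, 250 bases before to 50 after each start) were searched for the p53 response element, which is a pair of half-sites of 10 bases set up to 13 bases apart. The half-site consensus reads the same on both strands. Windows were given for 8 of the 10 genes, 11 windows in all. An element with at most 1 mismatch over both half-sites was found in 3 of these windows, those of Cdkn1a, Ccng1 and Bax, against 1.09% of all 32841 windows. The Cdkn1a window held an element with no mismatch, as did 0.0731% of all windows. Printed below is the stretch before the start, 5′ to 3′, for these 3 genes, for Phlda3, the gene of the set called on both scales, and for Trp53, which encodes p53 itself. Capitals mark exact half-sites and elements with at most 1 mismatch.
Cdkn1a upstream start, chr17:29090729-29090978, plus strand: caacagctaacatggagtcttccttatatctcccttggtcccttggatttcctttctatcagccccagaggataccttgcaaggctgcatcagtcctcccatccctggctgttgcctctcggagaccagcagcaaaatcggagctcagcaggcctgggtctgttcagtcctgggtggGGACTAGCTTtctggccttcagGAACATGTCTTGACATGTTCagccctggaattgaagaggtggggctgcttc
Ccng1, chr11:40755287-40755536, minus strand: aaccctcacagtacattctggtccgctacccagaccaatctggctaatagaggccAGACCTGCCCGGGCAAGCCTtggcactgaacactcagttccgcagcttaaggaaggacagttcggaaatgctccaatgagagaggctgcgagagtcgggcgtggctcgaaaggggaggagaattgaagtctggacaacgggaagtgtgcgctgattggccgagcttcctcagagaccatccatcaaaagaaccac
Bax, chr7:45466899-45467148, minus strand: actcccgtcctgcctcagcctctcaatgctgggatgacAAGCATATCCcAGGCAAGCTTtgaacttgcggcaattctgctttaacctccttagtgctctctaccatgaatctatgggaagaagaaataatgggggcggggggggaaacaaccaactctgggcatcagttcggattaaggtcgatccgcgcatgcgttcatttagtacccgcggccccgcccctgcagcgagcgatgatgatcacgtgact
Phlda3, chr1:135765835-135766084, plus strand: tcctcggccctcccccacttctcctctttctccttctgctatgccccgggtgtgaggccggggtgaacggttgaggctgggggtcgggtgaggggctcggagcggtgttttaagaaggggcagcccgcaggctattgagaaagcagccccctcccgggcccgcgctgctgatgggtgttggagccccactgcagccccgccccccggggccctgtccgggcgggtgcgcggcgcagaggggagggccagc
Trp53, chr11:69580109-69580358, plus strand: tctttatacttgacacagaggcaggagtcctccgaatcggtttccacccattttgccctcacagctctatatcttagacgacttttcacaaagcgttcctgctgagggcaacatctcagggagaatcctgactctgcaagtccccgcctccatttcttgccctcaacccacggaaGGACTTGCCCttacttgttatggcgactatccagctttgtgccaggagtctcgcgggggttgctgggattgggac

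In Cdkn1a the exact pair of half-sites runs from position -73 to -42, with 12 bases between its parts, where position 0 is the first transcribed base. The last of these half-sites is also the first of an element without a gap, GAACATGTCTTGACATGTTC, whose other half-site has 1 mismatch. The element of Ccng1, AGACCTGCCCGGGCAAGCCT, lies from position -195 to -176 without a gap, and that of Bax, AAGCATATCCCAGGCAAGCTT, from position -212 to -192 with 1 base between the half-sites. The Trp53 and Mdm2 windows hold 1 exact half-site each, as 8.36% of all windows hold at least 1. In the Phlda3, Bbc3 and Eda2r windows no pair came closer than 3 mismatches, which says only that these letters are not in these windows. A match is a description of sequence and not a measured site of binding. Cfp1 binds unmethylated CpG, and CpG were therefore counted as well. The window at the downstream start of Cdkn1a holds 23 CpG and that at its upstream start 2, the lowest count of the 11. Phlda3 has 26 CpG, Bax 19, Ccng1 14, Trp53 10 and Eda2r 5, against a median of 7 over all windows. The Mdm2 window has 35 and the 3 Bbc3 windows have between 30 and 39.

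Among the 10 genes, Trp53, Bax and Phlda3 were called higher in Cfp1-cKO hearts, and Phlda3 alone after scaling. Of the 9 genes that passed the filter on low values, 3 were thus called, 33.3% beside 21.1% of all genes tested. None of the 9 was called lower by limma on either scale. As deposited none had an unadjusted p below 0.05 in that direction, and after scaling Ccng1 (-0.40) and Trp53inp1 (-0.96) had one. Voom of limma on recovered fragments called Trp53 and Phlda3 higher and again 0 of the 9 lower. The median log2 fold change of the 9 was 0.35, the same as the 0.35 of all genes tested, and after scaling it was 0.12 beside 0.00. Zmat3, with a mean of 0.84 FPKM, fell below the filter. With the filter at a mean of 0.3 FPKM all 10 were tested, 4 of them were called higher, and their median was 0.43 beside 0.34 over 14372 genes, of which 20.1% were called higher. The 3 Cfp1-cKO values lay above all 3 WT values for 4 of the 9 genes and for Zmat3. This was so for 46.4% of all genes tested. After scaling it was so for 3 of the 10 genes, Trp53, Phlda3 and Zmat3, the last of which is below the filter. The share of all genes tested, which leave out Zmat3, was then 16.7%. In the other direction, the scaled Cfp1-cKO values of Ccng1 and of Trp53inp1 lay below all 3 WT values. The share of all genes tested with such a separation was not counted.

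**Figure D1:**
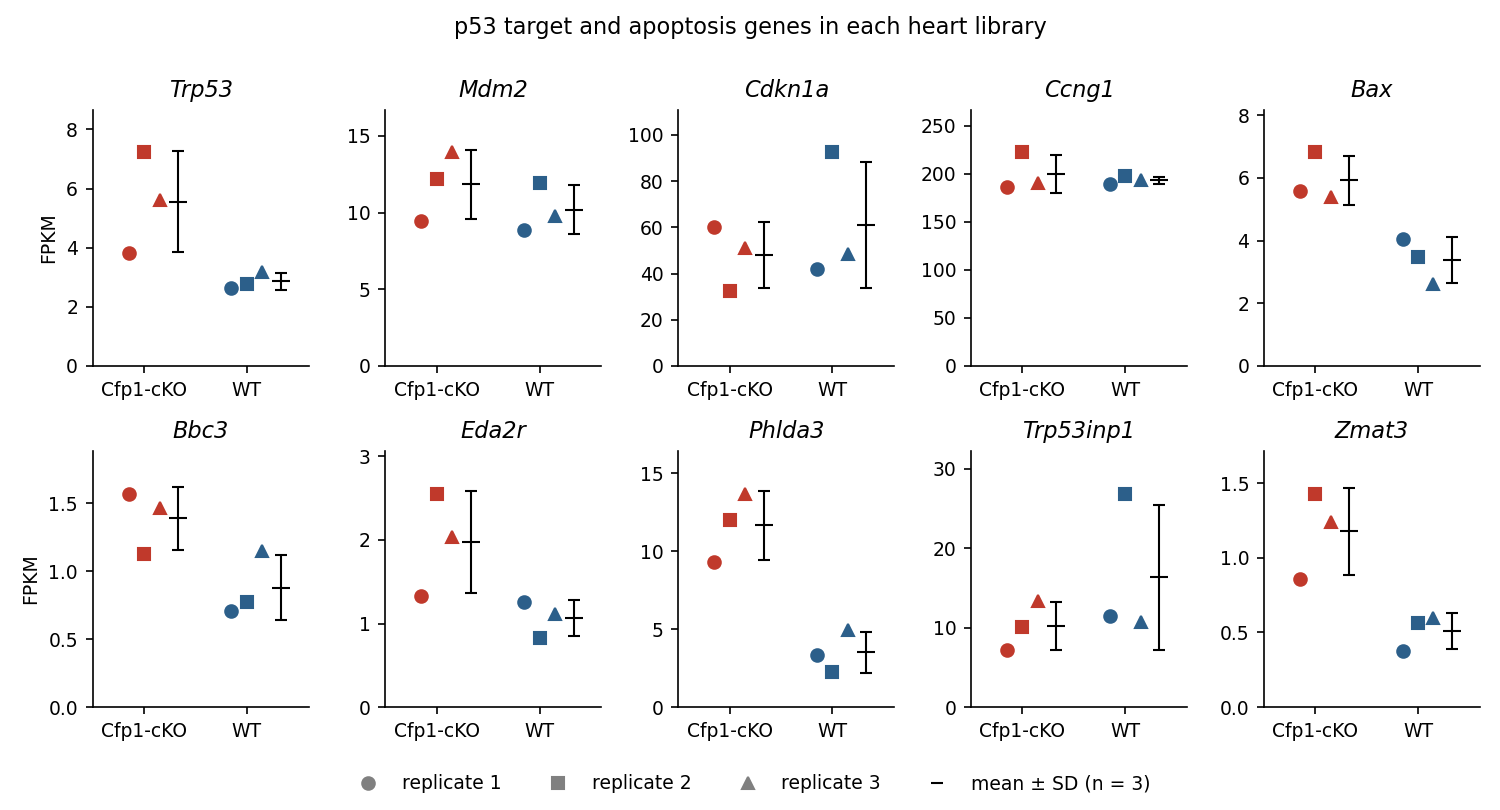
Level of each of the 10 genes in FPKM (y axis, from 0, with a scale of its own for each gene) in the 3 Cfp1-cKO and 3 WT libraries, with the marker showing the replicate and the black bar the mean ± SD (n = 3 each). Phlda3 reaches 9.28 to 13.7 FPKM in Cfp1-cKO hearts, against 2.28 to 4.92 FPKM in WT hearts, while the Cdkn1a values of the genotypes overlap and the highest is the second WT library.

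Trp53 (ENSMUSG00000059552, chromosome 11 from 69580359 to 69591873, plus strand, GRCm38) encodes p53 itself. It had 3.82, 7.22 and 5.63 FPKM in Cfp1-cKO hearts, against 2.62, 2.78 and 3.17 FPKM in WT hearts. Each Cfp1-cKO library lay above each WT library, and the Cfp1-cKO libraries spread more widely, with the second the highest. The means were 5.56 ± 1.70 FPKM in Cfp1-cKO hearts and 2.86 ± 0.28 FPKM in WT hearts (SD, n = 3 each). The log2 fold change of 0.73 (standard error, SE, 0.21) passed the test (adjusted p = 0.0389 from limma). After scaling it was 0.38 and did not (adjusted p = 0.216 from limma). The call was also lost when the second or the third Cfp1-cKO library or the first or second WT library was left out, with adjusted p from limma of 0.138, 0.1003, 0.114 and 0.0680 in that order. The second Cfp1-cKO library, the highest for Trp53, was also the highest for the markers of proliferating cells. Its summed markers of fibroblasts (727 FPKM), endothelium (238 FPKM) and erythroid cells (1889 FPKM) were the highest of all libraries as well. Its cardiomyocyte markers (8950 FPKM) were the lowest. The part of these differences in the Trp53 call was not tested.

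Mdm2 (ENSMUSG00000020184, chromosome 10 from 117688875 to 117710758, minus strand) encodes the ligase that marks p53 for degradation and is itself a p53 target. It had 9.44, 12.2 and 13.9 FPKM in Cfp1-cKO hearts, against 8.87, 11.9 and 9.76 FPKM in WT hearts. The genotypes overlapped, with the second WT library above the first Cfp1-cKO library. With a log2 fold change of 0.19 (SE 0.18; limma, adjusted p = 0.430) as deposited and of -0.22 (adjusted p = 0.464) after scaling, its sign depends on the scale. The paralog Mdm4, which binds p53 and dampens its activity, also overlapped between the genotypes, at 0.16 (limma, adjusted p = 0.510) and -0.22 after scaling.

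Cdkn1a (ENSMUSG00000023067, chromosome 17 from 29090979 to 29100722, plus strand) encodes p21, the inhibitor of cyclin-dependent kinases through which p53 halts the cell cycle. It had 60.3, 32.4 and 51.0 FPKM in Cfp1-cKO hearts, against 42.1, 92.4 and 48.6 FPKM in WT hearts. The groups overlapped, the second WT library was the highest of all and the second Cfp1-cKO library the lowest. The means were 47.9 ± 14.3 FPKM in Cfp1-cKO hearts and 61.05 ± 27.4 FPKM in WT hearts (SD, n = 3 each). On the log2 scale the difference was -0.30 (SE 0.33, limma adjusted p = 0.482), and -0.74 (limma adjusted p = 0.265) after scaling. Without the second WT library the deposited values gave 0.04 (adjusted p = 0.923 from limma), so as deposited the sign rests on that library. Scaled values were not fitted with a library left out. GENCODE release 21 has 273 exonic bases of Cdkn1a in an antisense gene model, AC167363.2. The promoter at its upstream start is the one with the exact p53 element printed above.

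Ccng1 (ENSMUSG00000020326, chromosome 11 from 40748552 to 40755311, minus strand), which encodes cyclin G1, was the most abundant of the 10 genes per length. It had 185.7, 222.1 and 190.8 FPKM in Cfp1-cKO hearts, against 189.6, 197.1 and 193.1 FPKM in WT hearts. As deposited the genotypes overlapped, and apart from the higher second Cfp1-cKO library the libraries lay close together. After scaling each Cfp1-cKO library lay below each WT library, at 155.4 to 182.2 against 212.8 to 241.2 FPKM. The difference on the log2 scale was 0.04 (SE 0.14, limma adjusted p = 0.835), and -0.40 (limma adjusted p = 0.175) after scaling. This gene was counted on at least 12070 fragments in every library. Its promoter window holds the element with 1 mismatch.

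Bax (ENSMUSG00000003873, chromosome 7 from 45461697 to 45466898, minus strand) encodes the Bcl2 family member that opens the outer mitochondrial membrane. It had 5.57, 6.81 and 5.39 FPKM in Cfp1-cKO hearts, against 4.05, 3.47 and 2.61 FPKM in WT hearts. Each Cfp1-cKO library lay above each WT library. Bax rose by 0.67 on the log2 scale (SE 0.18, limma adjusted p = 0.0319), and after scaling the difference of 0.31 did not pass the test (limma adjusted p = 0.327). Leaving out any library but the second WT one also ended the call, with limma adjusted p between 0.0559 and 0.127. GENCODE release 21 places 192 exonic bases of Bax in another gene model on the same strand, Gm45808. Bax was counted on 153 to 179 fragments in Cfp1-cKO hearts and on 74 to 145 fragments in WT hearts.

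Bbc3 (ENSMUSG00000002083, chromosome 7 from 16308393 to 16318205, plus strand) encodes Puma, which sets Bax and Bak1 free to act. It had 1.57, 1.13 and 1.46 FPKM in Cfp1-cKO hearts, against 0.71, 0.77 and 1.15 FPKM in WT hearts. The genotypes met at the edge, where the third WT library lay just above the second Cfp1-cKO library. This gave a log2 fold change of 0.35 (SE 0.17, limma adjusted p = 0.151), and of 0.12 after scaling. Each value rests on 31 to 65 fragments, the fewest of the 10 genes.

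Eda2r (ENSMUSG00000034457, chromosome X from 97333840 to 97377216, minus strand) encodes a receptor of the TNF receptor family for a form of ectodysplasin, the product of Eda. It had 1.33, 2.56 and 2.04 FPKM in Cfp1-cKO hearts, against 1.26, 0.83 and 1.11 FPKM in WT hearts. The Cfp1-cKO values lay above the WT values, though the first Cfp1-cKO library did so only narrowly. A log2 fold change of 0.51 (SE 0.20) did not pass the test (adjusted p = 0.0870 from limma), and it was 0.25 after scaling. The gene is X-linked and the libraries with Xist are split unevenly between the genotypes. With sex as a covariate, set by whether Xist exceeded Ddx3y, its log2 fold change was 0.57 (adjusted p = 0.0733 from limma). Without the first Cfp1-cKO library it was called, at 0.67 (adjusted p = 0.0494 from limma). Its ligand gene Eda was below the filter, at 0.55, 0.76 and 0.66 FPKM in Cfp1-cKO hearts, against 0.57, 0.52 and 0.68 FPKM in WT hearts.

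Phlda3 (ENSMUSG00000041801, chromosome 1 from 135766119 to 135769136, plus strand) encodes a small protein with a pleckstrin homology domain that competes with Akt for membrane lipids. It had 9.28, 12.0 and 13.7 FPKM in Cfp1-cKO hearts, against 3.33, 2.28 and 4.92 FPKM in WT hearts. The lowest Cfp1-cKO library was well above the highest WT library. The means were 11.7 ± 2.23 FPKM in Cfp1-cKO hearts and 3.51 ± 1.33 FPKM in WT hearts (SD, n = 3 each), a ratio of 3.32. Phlda3 rose by 1.52 on the log2 scale (SE 0.24, limma adjusted p = 0.00679), and by 1.14 after scaling (SE 0.21, limma adjusted p = 0.0189). Phlda3 was called in all 16 alternative fits, with log2 fold changes between 1.14 and 1.78 and a largest adjusted p of 0.0324 from limma. It was counted on 282, 312 and 385 fragments in Cfp1-cKO hearts, against 118, 67 and 138 fragments in WT hearts. Its paralog Phlda1 had a log2 fold change of 0.55 (0.24 after scaling) that did not pass the test, and Phlda2 was at most 0.27 FPKM in every library.

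Trp53inp1 (ENSMUSG00000028211, chromosome 4 from 11156431 to 11174379, plus strand) encodes a stress protein that supports p53 and autophagy. It had 7.21, 10.1 and 13.3 FPKM in Cfp1-cKO hearts, against 11.5, 26.9 and 10.7 FPKM in WT hearts. As deposited the genotypes overlapped, and the second WT library was far above the rest, as it was for Cdkn1a. After scaling each Cfp1-cKO library lay below each WT library, at 6.79 to 10.84 against 11.78 to 32.92 FPKM. Its difference of -0.55 on the log2 scale (SE 0.35, limma adjusted p = 0.239), or -0.96 after scaling (limma adjusted p = 0.155), did not pass the test. As deposited it was -0.15 (adjusted p = 0.634 from limma) without the second WT library.

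Zmat3 (ENSMUSG00000027663, chromosome 3 from 32334792 to 32366014, minus strand) encodes a zinc finger protein that binds RNA and alters splicing. It had 0.86, 1.43 and 1.24 FPKM in Cfp1-cKO hearts, against 0.37, 0.56 and 0.60 FPKM in WT hearts. Each Cfp1-cKO library lay above each WT library, on 191 to 273 fragments in Cfp1-cKO hearts and 97 to 123 fragments in WT hearts. With the filter at a mean of 0.3 FPKM its log2 fold change of 0.52 (standard error 0.15) passed the test (adjusted p = 0.0461 from limma), and after scaling it was 0.32 and did not (adjusted p = 0.186 from limma). The call was lost when any library but the first Cfp1-cKO one was left out. As the pseudocount of 1 exceeds most of its values, this scale understates its change, and the ratio of the means was 2.30.

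**Figure D2:**
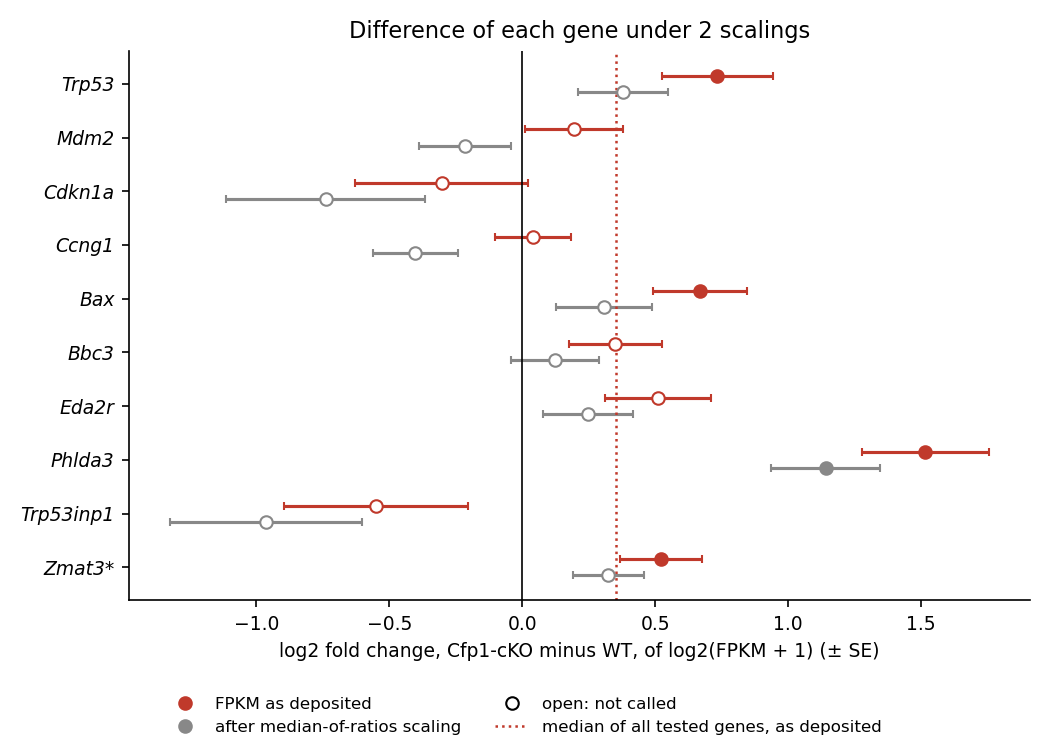
Log2 fold change of each of the 10 genes (x axis, Cfp1-cKO minus WT on the log2(FPKM + 1) scale, bars ± standard error, 3 libraries per genotype) as deposited in red and after median-of-ratios scaling in grey. Filled points passed the test and open points did not, Zmat3 (asterisk) was fitted with the filter at 0.3 FPKM, and the dotted line is the median of all tested genes at 0.35; Phlda3 is the one filled grey point.

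The pattern of Cdkn1a over the 6 libraries was set beside that of every other tested gene. The 3 genes most like it were Sqstm1 (Pearson r = 0.990), which encodes the autophagy receptor p62, Clec12b (r = 0.989), which encodes a lectin receptor, and Zkscan14 (r = 0.977), which encodes a zinc finger protein. These correlations over 6 libraries of log2(FPKM + 1) are descriptions, and the points differ in genotype and depth. Sqstm1 had 66.8, 50.9 and 63.9 FPKM in Cfp1-cKO hearts, against 56.4, 79.8 and 58.4 FPKM in WT hearts. Like Cdkn1a it was highest in the second WT library and lowest in the second Cfp1-cKO library. Among the other 8 tested genes of the set, Trp53inp1 came closest to Cdkn1a (r = 0.64), and Eda2r was farthest (r = -0.76). Trp53 had r = -0.56 and Phlda3 r = -0.52 with it.

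**Figure D3:**
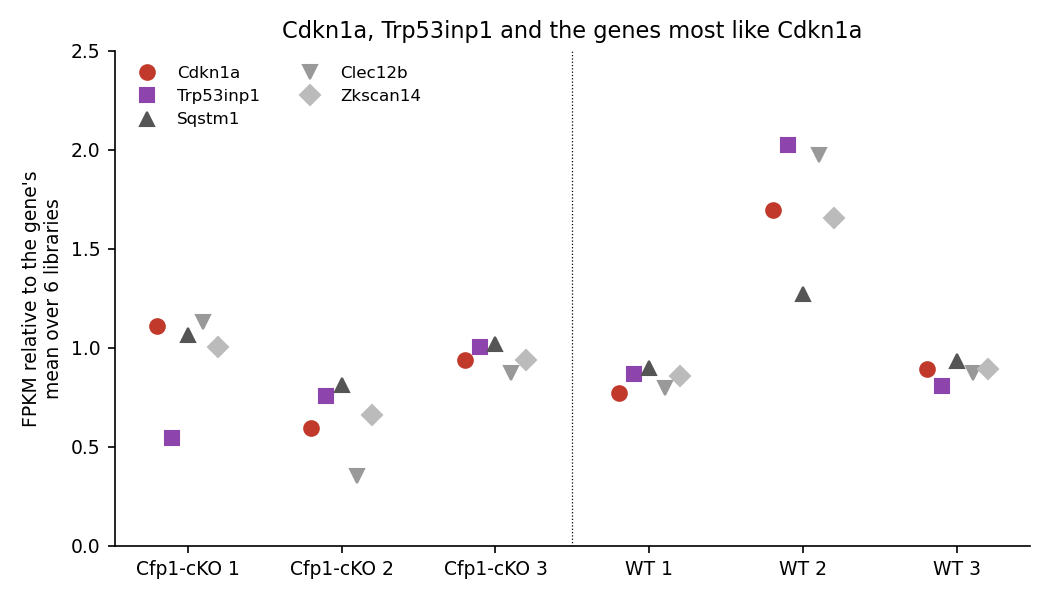
FPKM of Cdkn1a, Trp53inp1 and the 3 genes most like Cdkn1a in each library (x axis, Cfp1-cKO left of WT), divided by the gene's mean over the 6 libraries (y axis, no unit). All 5 genes are highest in the second WT library, where Cdkn1a is at 92.4 FPKM.

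The other targets of p53 were described from a list of 40 genes, of which 31 passed the filter. Among them 11 were called higher in Cfp1-cKO hearts (35.5%, beside 21.1% of all genes tested), 1 was called lower (3.23% beside 1.68%) and 19 were not called. Their median log2 fold change was 0.51, beside 0.35 over all genes tested, and 0.17 beside 0.00 after scaling. Gdf15, which encodes a secreted stress cytokine, had 5.02, 1.49 and 0.75 FPKM in Cfp1-cKO hearts, against 0.05, 0.06 and 0.09 FPKM in WT hearts. Its libraries did not overlap, but the Cfp1-cKO values differed several-fold among themselves, with the first the highest. Gdf15 was called as deposited (log2 fold change 1.48, adjusted p = 0.0332 from limma) and not after scaling (1.348, adjusted p = 0.0993 from limma). Its size depended on the scale used for low values, since it was 3.54 with a pseudocount of 0.1 and 4.60 by voom. The call was also lost without the second Cfp1-cKO library or the first or second WT library. Dcxr, which encodes a carbonyl reductase, rose by 1.31 (adjusted p = 0.0134 from limma) and by 1.04 after scaling (adjusted p = 0.0476 from limma). The kinase gene Plk2 rose by 1.16 as deposited, and after scaling its log2 fold change of 0.75 was not called. Without the first or second Cfp1-cKO library or the first WT library Plk2 also lost its call.

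The sestrin genes, whose products restrain mTOR signalling, were called in opposite directions as deposited. Sesn1 had 34.7, 17.9 and 31.3 FPKM in Cfp1-cKO hearts, against 51.3, 78.5 and 52.8 FPKM in WT hearts. It was lower in each Cfp1-cKO library than in any WT library, and its log2 fold change fell by 1.12 as deposited (adjusted p = 0.0256 from limma) and by 1.55 after scaling (adjusted p = 0.0291 from limma). Sesn2 had 1.03, 2.33 and 2.38 FPKM in Cfp1-cKO hearts, against 0.58, 0.60 and 0.72 FPKM in WT hearts. It was called as deposited (0.80, adjusted p = 0.0372 from limma) and not after scaling (0.56). With a mean of 0.63 FPKM in WT hearts, Sesn2 passed the filter only through its Cfp1-cKO values. The Sesn1 call was lost without the second or the third Cfp1-cKO library or the first or second WT library (adjusted p from limma between 0.0511 and 0.0758), and the Sesn2 call without any library but the first Cfp1-cKO one. The lowest Sesn1 value was in the second Cfp1-cKO library and the highest in the second WT library, as for Cdkn1a. The antiproliferative gene Btg2 (0.34, and -0.08 after scaling) and the death receptor gene Fas (-0.34, and -0.75 after scaling) were not called. Pmaip1, which encodes Noxa, was below the filter in mean level, at 0.48 to 0.75 FPKM in Cfp1-cKO hearts, against 0.17 to 0.40 FPKM in WT hearts. After scaling, Perp, which encodes a membrane protein of apoptosis and adhesion, joined Sesn1 among the genes called lower (-0.87), and Dcxr was the 1 gene called higher. Of all genes tested 3.25% were then called lower and 3.73% higher.

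Of a list of 21 p53 regulators, which also holds the Trp53 paralogs Trp63 and Trp73, 16 were tested. Of these 1, the kinase gene Hipk2, was called higher (6.25%, beside 21.1% of all genes tested). It had 4.35, 5.36 and 7.41 FPKM in Cfp1-cKO hearts, against 2.099, 1.015 and 3.78 FPKM in WT hearts. Its genotypes did not overlap, and its log2 fold change, 1.09 (adjusted p = 0.0399 from limma), was 0.75 and not called after scaling. Leaving out any library but the third WT one also ended this call. The median of the 16 was 0.18, below the 0.35 of all genes tested.

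Of the Bcl2 family, whose members promote or block the opening of mitochondria, 12 of 18 genes were tested and 4 were called higher (33.3%, beside 21.1% of all genes tested). These were Bok (1.24, and 0.95 after scaling) and Bad (0.53, and 0.15), which promote death, and Bcl2 (0.64, and 0.42) and Bcl2l2 (0.74, and 0.35), which block it. With 1 library left out Bad was called in 0 of 6 fits, and over all 16 alternatives in 4. Bcl2 and Bcl2l2 lost their calls without the second or the third Cfp1-cKO library or the first WT library, and Bok without the first WT library. Bok had 2.71, 5.61 and 2.84 FPKM in Cfp1-cKO hearts, against 0.89, 1.27 and 0.66 FPKM in WT hearts. Bcl2 had 1.31, 1.80 and 1.42 FPKM in Cfp1-cKO hearts, against 0.45, 0.74 and 0.64 FPKM in WT hearts. In both genes the genotypes did not overlap. Their means in WT hearts were 0.94 and 0.61 FPKM, so both passed the filter only through their Cfp1-cKO values. After scaling limma called 0 of the 12 in either direction, with an unadjusted p below 0.05 for 3 higher and 3 lower, and as deposited voom called 3 higher. The abundant survival genes Mcl1 (-0.05, and -0.49 after scaling) and Bcl2l1 (-0.11, and -0.52 after scaling) and the effector Bak1 (0.19, and -0.18 after scaling) were not called. The median of the 12 was 0.18, and -0.18 after scaling.

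Among caspases and the apoptosome, 17 of 18 genes were tested, 3 were called higher (17.6%, beside 21.1% of all genes tested) and 1 lower (5.88% beside 1.68%). Among the genes called higher were Casp8 (0.73, and 0.40 after scaling), the initiator below death receptors, and Casp12 (0.70, and 0.36 after scaling), which sits at the endoplasmic reticulum. Both lost their calls without the second or the third Cfp1-cKO library or the first WT library, and Casp12 also without the second WT library. Cycs, which encodes the cytochrome c of the respiratory chain and the apoptosome, had 263.0, 264.4 and 258.0 FPKM in Cfp1-cKO hearts, against 438.1, 337.5 and 377.8 FPKM in WT hearts. Its Cfp1-cKO values were nearly equal and all below the WT values, and it fell by 0.54 (adjusted p = 0.0373 from limma) as deposited and by 0.99 (adjusted p = 0.0181 from limma) after scaling. As deposited this call was lost without any library but the second WT one, with adjusted p from limma between 0.0521 and 0.145. Aifm1, another mitochondrial gene, was called lower with Cycs after scaling (-0.74), 2 of the 17 genes, beside 3.25% of all genes tested. No caspase was then called, though 2 genes of the list were higher at an unadjusted p below 0.05 from limma. Casp9 (0.54, adjusted p = 0.0619, and 0.26 after scaling) and Apaf1 (0.28, adjusted p = 0.204, and 0.02 after scaling), which together form the apoptosome with cytochrome c, did not pass the test of limma, although their genotypes did not overlap.

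Of the death receptor list 13 of 18 genes were tested and 6 were called higher (46.2%, beside 21.1% of all genes tested), with a median of 0.59, and of 0.26 after scaling. Tnfrsf12a, the receptor for the cytokine Tweak, had 140.5, 73.7 and 33.1 FPKM in Cfp1-cKO hearts, against 25.5, 10.03 and 24.4 FPKM in WT hearts. The Cfp1-cKO libraries differed widely, and the lowest of them was close to the WT libraries. Its log2 fold change was 1.87 (adjusted p = 0.0359 from limma), and 1.44 and not called after scaling. The call also ended without the first or second Cfp1-cKO library or the first or second WT library. Fadd, the adaptor that links death receptors to Casp8, had 2.42, 3.04 and 2.90 FPKM in Cfp1-cKO hearts, against 0.88, 0.27 and 1.07 FPKM in WT hearts. It was called as deposited (1.15, adjusted p = 0.0120 from limma) and after scaling (0.90, adjusted p = 0.0406 from limma), the 1 gene of this list to be so. The ligand gene Tnfsf10 rose by 1.04 and the necroptosis gene Mlkl by 0.80 as deposited, and their values of 0.71 and 0.55 after scaling were not called. Tnfsf10 lost its call without the second Cfp1-cKO or the first WT library, and Mlkl without any library but the third WT one. Fadd and Mlkl averaged 0.74 and 0.91 FPKM in WT hearts and passed the filter only through their Cfp1-cKO values. Immune cells also express several of these genes, and the summed macrophage and B cell markers were higher in the same libraries, whose part in this was not tested.

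Among inhibitors of cyclin-dependent kinases and regulators of G1, 15 of 19 genes were tested and 3 were called higher (20%, beside 21.1% of all genes tested), all of them D-type cyclins. Ccnd1 had 5.81, 11.4 and 5.70 FPKM in Cfp1-cKO hearts, against 0.74, 1.71 and 1.498 FPKM in WT hearts. The genotypes were far apart, with a log2 fold change of 1.86 (limma, adjusted p = 0.00565), and of 1.54 (adjusted p = 0.0172) after scaling. Ccnd2 (0.71, and 0.32 after scaling) and Ccnd3 (0.65, and 0.30 after scaling) were called as deposited only, and each was called in 1 of the 6 fits with a library left out. The inhibitor gene Cdkn1b, a paralog of Cdkn1a, had 9.77, 13.4 and 16.7 FPKM in Cfp1-cKO hearts, against 16.8, 19.2 and 15.6 FPKM in WT hearts. The groups overlapped and it was not called as deposited (-0.37), but it was called lower after scaling (-0.79, adjusted p = 0.0454 from limma). Cdkn1c (0.14, and -0.21 after scaling) and the replication gene Pcna (0.42, and -0.01 after scaling) were not called. Mki67, a marker of cycling cells, had 1.13, 8.07 and 0.75 FPKM in Cfp1-cKO hearts, against 0.31, 0.09 and 0.91 FPKM in WT hearts, so that its level stood out in the second Cfp1-cKO library only.

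Paralogs of the 10 genes were listed as well, some of which, such as Mdm4, Cdkn1b, Bak1 and Bok, also stand in the lists above. Whether p53 controls them was not tested. Of 15 paralogs 11 were tested and 2 were called higher (18.2%, beside 21.1% of all genes tested), Bok and Zmat2, a splicing factor gene that rose by 0.70 (0.28 and not called after scaling). The Zmat2 call was lost without any library but the third WT one. Their median was 0.34, and -0.10 after scaling. Over all the lists, the genes called on both scales were Phlda3, Dcxr, Fadd and Ccnd1, which were higher in Cfp1-cKO hearts, and Sesn1 and Cycs, which were lower. The 4 higher genes were called in all 16 alternative fits, and Sesn1 and Cycs in 10 each. Of the higher genes, Fadd passed the filter only through its Cfp1-cKO values.

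**Figure D4:**
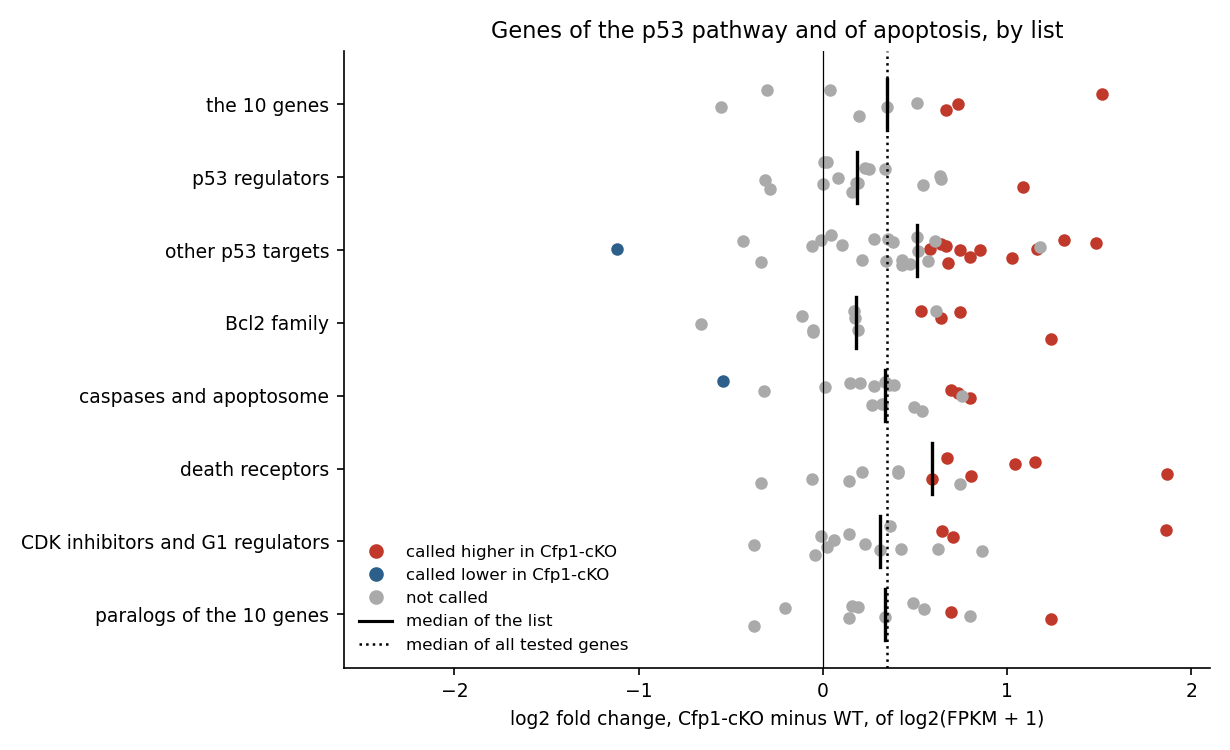
Log2 fold change (x axis, Cfp1-cKO minus WT on the log2(FPKM + 1) scale, as deposited) of each tested gene in the 8 lists (rows), with genes called higher in red, called lower in blue and not called in grey. Black bars mark each list's median, from 0.18 for the regulators and the Bcl2 family to 0.59 for the death receptors, and the dotted line the median of all tested genes at 0.35.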

How the data were processed

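RNA of 3 Cfp1-cKO and 3 WT heart samples was sequenced with an Illumina TruSeq kit. The authors deposited FPKM per gene, from fragments aligned and counted before deposit. To make them, the authors used tools that the submitters' processing notes list as CASAVA, Bowtie2 2.2.3, HISAT2 2.1.0, TopHat2, HTSeq 0.6.0 and DESeq2, without roles or order, with the build GRCm38. In the paper the authors give, for the reference, the address of a chicken genome. The extraction text speaks of retinas and could not be related to these hearts. FPKM of the plain and the annotated tables were identical for all 26881 genes. Gene coordinates are those of the annotated table. The strandedness of the counting is not given in the sources used here, so fragments of overlapping genes cannot be told apart.

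Groups follow the genotype labels. The genotypes were fitted in R 4.3.3 with limma 3.58.1 and a variance trend, on log2(FPKM + 1) of the 11017 genes that averaged 1 FPKM or more, with Benjamini-Hochberg adjustment over all of them. A call needed an adjusted p under 0.05 and a log2 fold change larger than 0.5 in size. This scale understates the changes of low genes. The filter used the mean of all 6 libraries, so a gene could pass it through 1 genotype, and such genes count in the shares called. Gdf15, Sesn2, Bok, Bcl2, Fadd, Mlkl, Mki67 and Bbc3 averaged under 1 FPKM in WT hearts. The planned count test did not apply, since the files hold no counts. The FPKM came out as whole fragments, within a tolerance of 0.02, for 99.99% of genes. Where the GENCODE length did not give whole values, a length that did was sought, so this share is partly set by the search. Cdkn1a was given 2223 bases in this way, against 3553 in GENCODE. In a gene of 2 kilobases 1 fragment was worth 0.0220 to 0.0300 FPKM, and voom on the recovered fragments called 2740 genes. Fits were tested on simulated data.

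The 10 genes, the lists and the thresholds were chosen with earlier results of these data known. Named were the 10 genes, Cxxc1, up to 4 called genes of each list with the largest change and no overlap between genotypes, 19 genes fixed by name, and the 3 genes most like Cdkn1a. Some genes that this rule names are not reported here. Phlda1, Phlda2, Perp and Aifm1 were named after their values were seen. Alternatives covered the pseudocount, the filter, scaling, removal of mitochondrial and haemoglobin genes, the variance model, library weights, sex, the replicate number and each library left out. Promoter windows were those of RefSeq for GRCm38.p6. Python 3.11.15 with numpy 2.4.6, pandas 2.3.3 and matplotlib 3.10.9 was used.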

Additional observations from a re-analysis of the deposited data

How the results depend on the processing

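Phlda3 was called higher in Cfp1-cKO hearts under every alternative tried. The number of the 9 tested genes called, 3 as deposited, was 1 after median-of-ratios scaling, 1 without a filter and 1 without mitochondrial and haemoglobin genes, and with 1 library left out it was between 1 and 3. With the filter at 0.3 FPKM 4 of all 10 genes were called, Zmat3 beside the same 3. Genes called in all, 2510 as deposited, came to 4399 with library quality weights, 769 after scaling, 1609 without a filter, 1554 without mitochondrial and haemoglobin genes, and 588 to 2789 with 1 library left out, the lowest being without the second Cfp1-cKO library. Samples with the same replicate number are not paired by the labels, and their deviations from the group means correlated at 0.11, 0.04 and 0.10. Every library correlated best with its own number, though the second WT library by a small margin (0.036, beside 0.029 with the first Cfp1-cKO library). Correlations this small cannot show if the samples were paired. With the replicate number as a block 1749 genes were called and 2 of the 9, Phlda3 and Bax. None of the values that changed sign was called on either side. These were, after scaling, Mdm2 (-0.22), Ccng1 (-0.40), Mdm4 (-0.22), Btg2 (-0.0776), Bak1 (-0.18), Cdkn1c (-0.21) and Pcna (-0.00563). Others were Ccng1 without mitochondrial and haemoglobin genes (-0.0177) and Mcl1 with library quality weights (0.0547). With 1 library left out Cdkn1a ranged from -0.52 to 0.0357, the highest without the second WT library, and without the second Cfp1-cKO library Ccng1 was lowest in a range of -0.0379 to 0.0906 and Bcl2l1 highest in a range of -0.23 to 0.0687. The causes were not tested. Depth limits the genes with few fragments, Bbc3 above all.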
